A study of Oryza sativa with 6 samples.

Results

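Rice seedlings over-expressing OsRDR3 (OE) were compared with wild-type seedlings (WT) across every locus of the table that sets these groups against each other. That table lists 4295 loci, out of 6921 found in either table of the series. Both groups were 5-week-old seedlings of the indica cultivar Pusa Basmati 1, taken as vegetative tissue, with 2 libraries each among the 6 libraries of the series. The labels name the lines only as OE and WT, and the libraries were made from Trizol-extracted total RNA by Illumina protocols. The extraction note names wild-type and knock-down lines and does not mention the OE line. The sources used here do not state the promoter of the transgene, how many independent lines were used or whether replicates came from separate plants. P-values then measure at most the spread between these libraries, which may be technical.

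The values are FPKM, which divides the fragments of a transcript by its length and by the size of the library, and the table holds 1 pooled value per group and locus with no SD. Sequencing depth is unknown, since no read counts are given. The log2 difference used throughout is log2(FPKM in OE / FPKM in WT) without a pseudocount unless one is named, so a positive value means higher in OE. A locus was called where the authors' Cuffdiff q-value, their p-value adjusted over all tests, was under 0.05. Only loci with an unadjusted p of at most 0.05 are listed, and the ratio of q to p places them within 17596 tests, so the listed loci were 24.4% of those tested. The same ratio implies 276 further loci at that p, 190 of them with a q under 0.05, which are not analysed here.

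RNA-dependent RNA polymerases copy single-stranded RNA into double-stranded RNA. In plants, Dicer-like ribonucleases cut such duplexes into small interfering RNAs, which Argonaute proteins use to find matching transcripts or chromatin. OsRDR3 belongs to a branch of the family whose role is less well known than that of the branch making trans-acting and heterochromatic small RNAs. The question put by the design is which transcripts differ in seedlings that carry more of this enzyme's transcript.

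A single RNA-dependent RNA polymerase was listed, BGIOSGA002194 on chromosome 1, from 5687015 to 5701037 in the authors' coordinates (the genome build is not given in the sources used here). It stood at 58.7 FPKM in OE, against 0.198 FPKM in WT, a log2 difference of 8.21 with q = 0.00105 in the authors' deposited table. This was the largest log2 difference among the 4295 listed loci. A pseudocount of 1 brought the log2 difference to 5.64. The files do not pair this identifier with the name OsRDR3. In the companion table the same locus stood at 69.5 FPKM in the libraries labelled knock-down, against 0.190 FPKM in WT, so it was high in both transgenic groups. Across 1714 loci listed in both tables, WT values in the table with OE were 1.04 times those in the companion table, which was scaled separately. Within 100 kb of it, 3 other loci were listed. BGIOSGA002945, the nearest at 45025 bp, had 3.18 FPKM in OE and 1.30 FPKM in WT. BGIOSGA002948, 67958 bp away, had 12.7 FPKM in OE and 26.5 FPKM in WT. These nearest called neighbours went in opposite directions, and the remaining one was not called.

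Most listed transcripts were higher in OE. Of the 4295 listed loci, 2912 were higher in OE and 1383 lower, with a median log2 difference of 0.67 and quartiles of -0.49 and 1.22. The called loci numbered 2211, which is 51.5% of the listed loci and 12.6% of the loci tested. With the 190 unlisted loci implied to have a q under 0.05, the share of loci tested would be 13.6%. Of the 2211 called loci, 1626 rose (37.9% of listed loci) and 585 fell (13.6% of listed loci). At least 2-fold rises were found at 960 called loci (22.4% of listed) and at least 2-fold falls at 116 (2.7%). These shares of listed loci are the background for every count of a gene group below. After centring on the listed median, which subtracts 0.67 from each log2 difference, 1381 called loci were above 0 and 829 below.

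Large rises came from transcripts close to the lower end in WT. Called loci that rose had a median of 9.26 FPKM in OE and 3.75 FPKM in WT, and 344 of them were under 1 FPKM in WT. Called loci that fell had a median of 7.33 FPKM in OE and 12.5 FPKM in WT, and 6 of them were under 1 FPKM in WT. Rises of at least 8-fold were called at 138 loci, against 0 falls of that size. A large difference did not by itself pass the authors' test, since 187 loci were listed at 8-fold or more above WT and 73.8% of them were called. With a pseudocount of 1, called rises of at least 4-fold numbered 124, compared with 344 without it, and called falls of that size numbered 2, compared with 7.

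**Figure D1:**
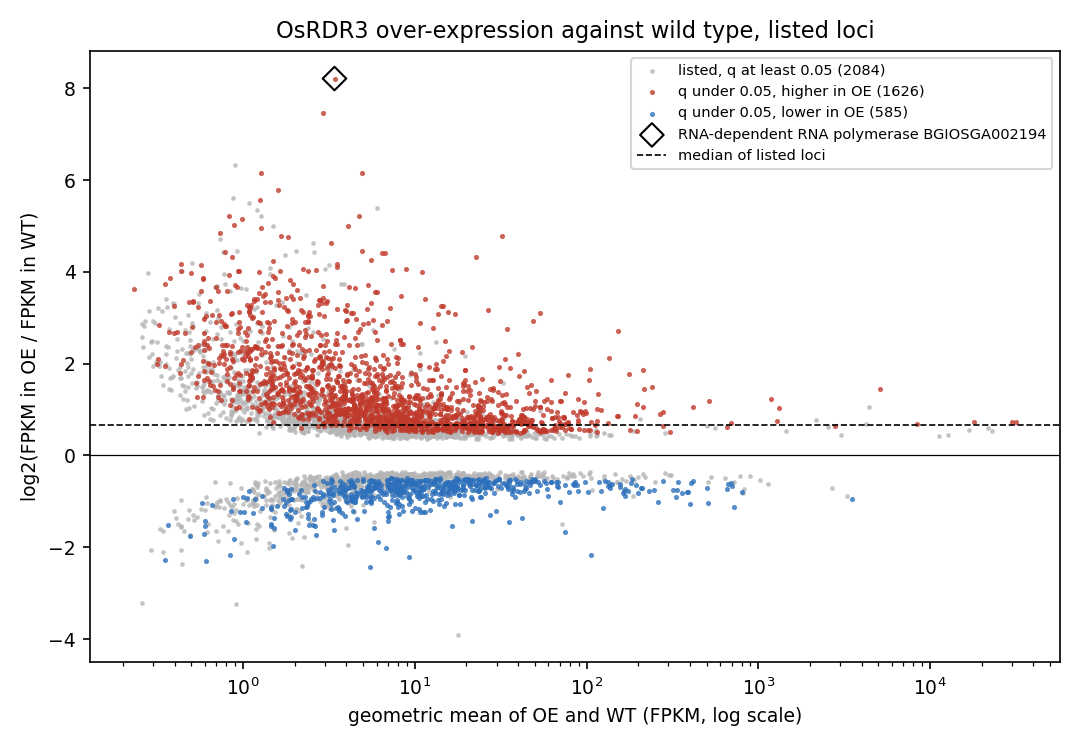
Each point is 1 of the 4295 listed loci, by the geometric mean of its OE and WT values in FPKM (log axis) and its log2 difference, OE over WT. Red and blue mark the 1626 called rises and 585 called falls, the dashed line is the listed median of 0.67, below which 829 called loci lie, and the diamond is BGIOSGA002194 at 8.21.

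The share of listed loci higher in OE varied with expression level, though not evenly. The listed loci were placed in classes by the geometric mean of their OE and WT values. Between 0.3 and 1 FPKM, 83.7% of 406 loci were higher in OE, with a median log2 difference of 1.75. Between 1 and 3 FPKM it was 75.0% of 957 loci, with a median of 1.02. From 3 to 10 FPKM, 64.2% of 1566 loci were higher and the median was 0.60. From 10 to 30 and from 30 to 100 FPKM, 62.7% and 66.4% of loci were higher and the medians were both 0.52. At 100 FPKM or more, 45.6% of 147 loci were higher and the median was -0.43, with 42 called rises and 47 called falls. After centring, the median of every class from 3 FPKM upward lay below 0.

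The pseudocount changed the low classes most. With 1 FPKM added to both values, the class medians ran from 0.48 to 0.69 in the 6 classes under 100 FPKM and stayed at -0.43 in the highest class. The smallest log2 difference listed also differed by class. In either direction it was 0.59 between 0.3 and 1 FPKM, but 0.36 at 100 FPKM or more. The part of listing in the gradient was not tested.

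Loci assigned to a plastid compartment in their cellular component terms accounted for a growing share of the higher classes. They made up 3.76% of listed loci from 1 to 3 FPKM, 19.7% from 10 to 30 FPKM and 46.9% at 100 FPKM or more. In the highest class, 8 of these 69 plastid loci were higher in OE and 61 lower, with a median log2 difference of -0.60. The other 78 loci of that class, which include loci with no compartment term, had 59 higher and 19 lower and a median of 0.56. From 3 FPKM upward, plastid loci had class medians between -0.60 and -0.41, and all other loci had class medians between 0.56 and 0.62, which centring would put just below 0. Below 3 FPKM the plastid loci were mostly higher in OE too, with 24 of 36 higher between 1 and 3 FPKM and a median of 0.97.

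**Figure D2:**
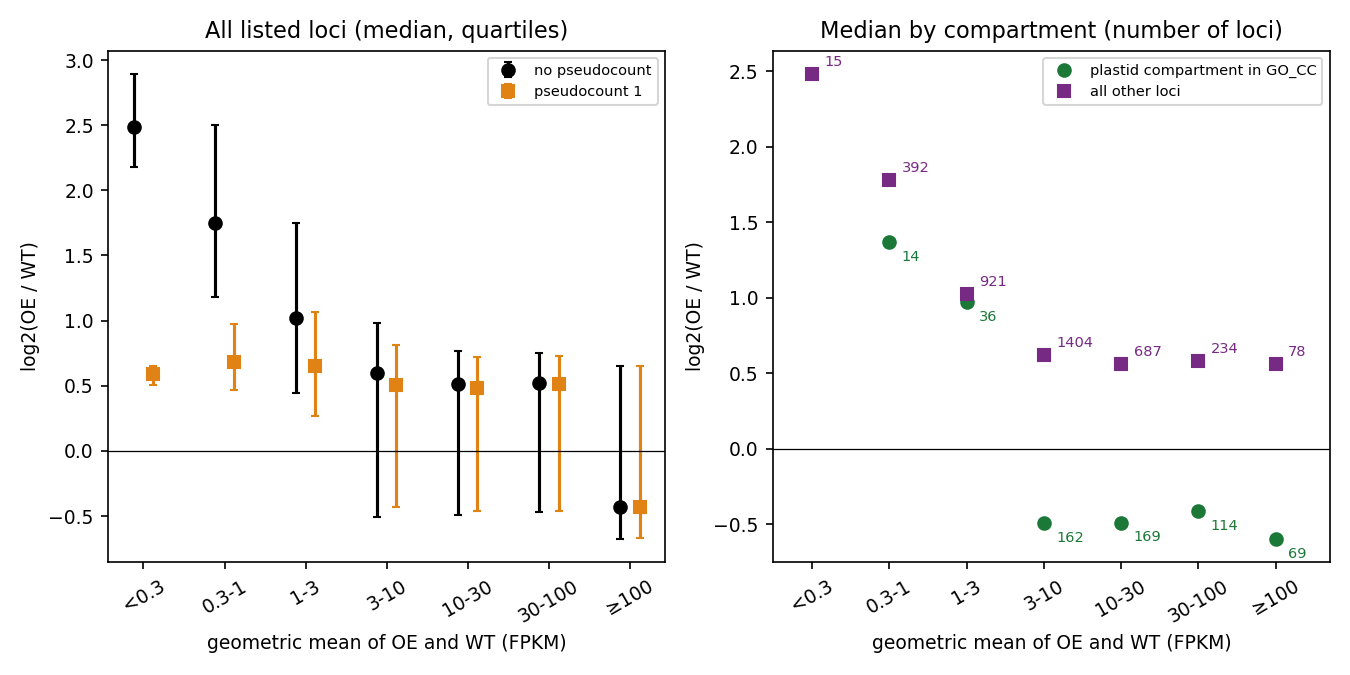
The left panel gives the median and quartiles of the log2 difference, OE over WT, per class of geometric mean FPKM, without a pseudocount and with 1 FPKM added. The right panel gives class medians for loci with a plastid compartment term and for all others, with the number of loci beside each point. From 3 FPKM upward the plastid medians lie at -0.41 or lower and the others at 0.56 or higher, before centring by 0.67.

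Cellular compartments split in the same way. Of 58 cellular component terms with at least 12 listed loci, 13 had a median log2 difference below 0, and every one of those 13 was a plastid, thylakoid or photosystem term. The other 45 had medians above 0, and 9 reached 1 or more. Photosystem I, which passes electrons to ferredoxin, had 11 called falls and 0 called rises among 18 listed loci, with a median of -0.71. At the other end stood the extracellular region, with 31 called rises and 1 called fall among 44 loci and a median of 1.95. The wider list of extracellular region and apoplast was more mixed, with 76 called rises and 22 called falls among 143 loci. Its median was 0.79 with a lower quartile of -0.45, and its summed level was 9576 FPKM in OE and 12650 FPKM in WT. Plant-type cell wall loci had 43 called rises and 0 called falls among 61, with a median of 1.35. The kinesin complex, whose motors move along microtubules, had 15 called rises and 0 called falls among 25, with a median of 1.02. The 564 loci with any plastid compartment term had 124 called rises and 181 called falls, against 734 and 134 among 1630 loci with other compartment terms. Between these ends, the mitochondrial matrix had a median of 0.07, which centring turns below 0.

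**Figure D3:**
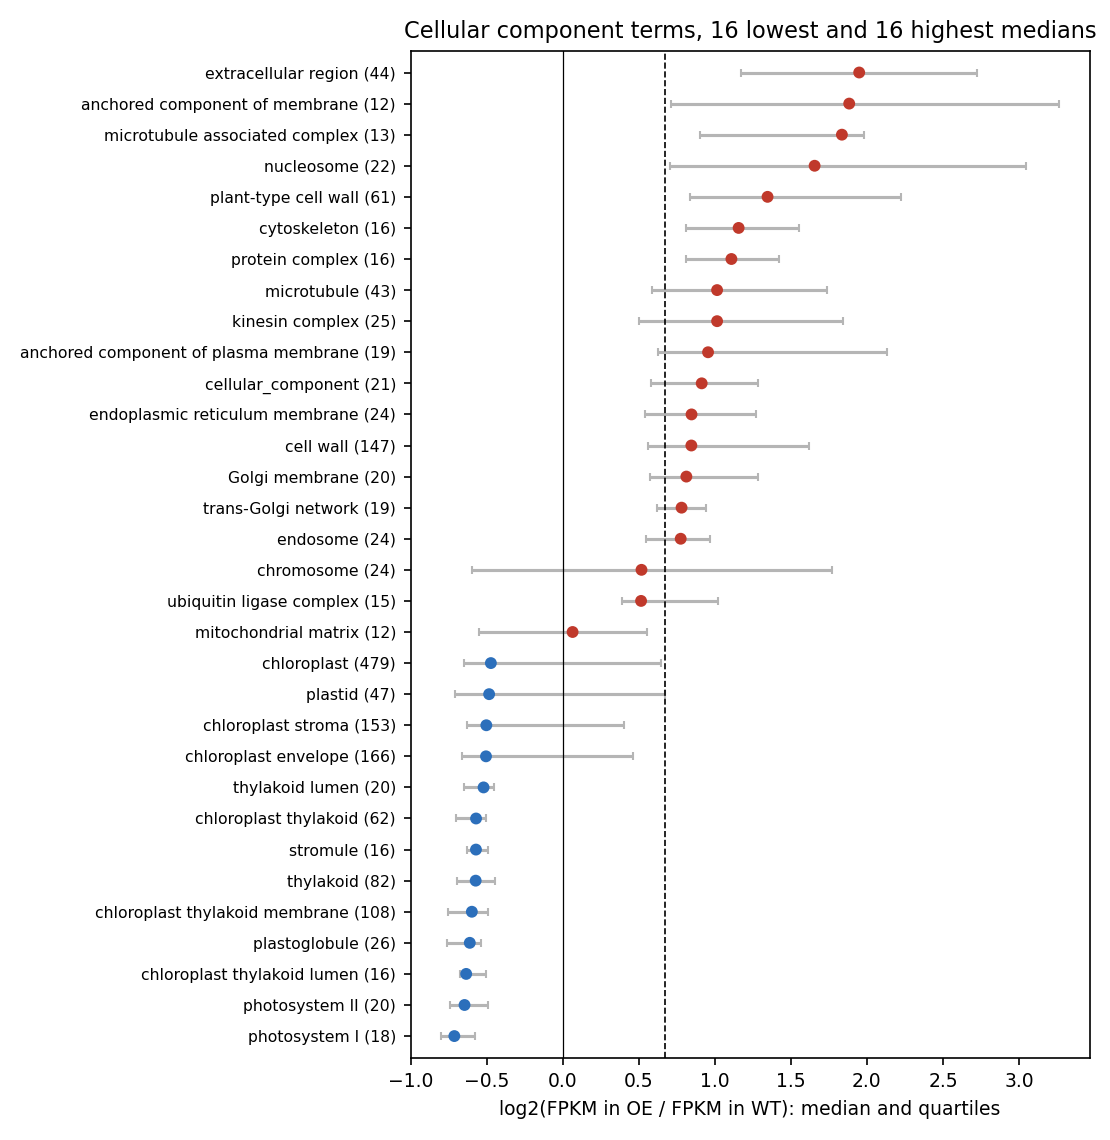
Median and quartiles of the log2 difference, OE over WT, for the 16 lowest and 16 highest of the 58 cellular component terms with at least 12 listed loci (number in brackets). The solid line is 0 and the dashed line the listed median of 0.67, to the left of which the mitochondrial matrix, the chromosome and the ubiquitin ligase complex also lie. Photosystem I is lowest at -0.71 and the extracellular region highest at 1.95.

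Genes of DNA replication and cell division were more often called higher than lower in OE. The DNA replication list had 20 called rises and 3 called falls among 37 listed loci, with 14 not called and a median log2 difference of 1.27. Among biological process terms, DNA replication initiation had 13 called rises among 16 loci, cell proliferation 16 among 21 and cytokinesis 10 among 19, each with 0 called falls and medians of 1.73, 1.73 and 1.76. With a pseudocount of 1 these medians were 0.70, 0.74 and 0.69, since the loci were weakly expressed. All 5 listed subunits of the MCM complex, the helicase that opens replication origins, were called higher, with log2 differences between 1.62 and 2.25. MCM7 had 1.08 FPKM in OE and 0.228 FPKM in WT, and MCM2 (BGIOSGA035270) had 1.67 FPKM in OE and 0.498 FPKM in WT. Proliferating cell nuclear antigen (BGIOSGA009238), the sliding clamp of replication, had 11.1 FPKM in OE and 4.20 FPKM in WT. Levels of the MCM subunits were near 1 FPKM in OE and below it in WT, while the clamp was several times more abundant in both groups.

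Histones, the proteins that package DNA, showed large differences at several loci. All 17 loci with a histone protein name were higher in OE, with log2 differences between 0.50 and 4.27. Centring turns the smallest of these below 0. Of the 17 loci, 7 were called (41.2%), near the 37.9% called higher over all listed loci. The wider nucleosome list had 9 called rises and 1 called fall among 22 loci, with log2 differences from -0.57 to 4.27. Histone H3.2 (BGIOSGA017977) had 24.5 FPKM in OE and 1.27 FPKM in WT, a log2 difference of 4.27 with q = 0.0286 in the authors' deposited table. H2B.2 had 44.0 FPKM in OE and 4.60 FPKM in WT, and H2A.5 (BGIOSGA010990) had 79.5 FPKM in OE and 8.91 FPKM in WT. The most abundant one, annotated as H3.3 (BGIOSGA012789, replacement histone), had 342 FPKM in OE and 242 FPKM in WT and was not called. Another H3.2 locus (BGIOSGA021865) had 14.1 FPKM in OE and 1.06 FPKM in WT and was not called either, at q = 0.0732 in the authors' deposited table. Histone genes are near-identical copies, so the division of fragments among them is uncertain.

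Microtubule and cytokinesis genes had 70 called rises and 5 called falls among 134 listed loci, with a median log2 difference of 0.91. All 10 listed tubulin loci, the subunits of microtubules, were called higher, with log2 differences between 0.65 and 2.04, of which 1 falls below 0 after centring. The alpha tubulin BGIOSGA035072 had 356 FPKM in OE and 131 FPKM in WT, and BGIOSGA013494 had 365 FPKM in OE and 195 FPKM in WT. The beta tubulin BGIOSGA007615 had 110 FPKM in OE and 35.2 FPKM in WT. The 3 listed actins were also called higher, led by ACT1 at 73.9 FPKM in OE and 22.4 FPKM in WT. Tubulins and actins are families of close copies too, so values of single members are uncertain while the shared direction was seen at every listed copy.

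Of a marker list for dividing meristem, 2 of 10 genes were matched by short name, the mitotic cyclins CYCB2-1 and CYCB2-2. Their summed level was 4.10 FPKM in OE and 1.19 FPKM in WT. The list also names PCNA, which the match missed and this sum leaves out. Its locus BGIOSGA009238, given above under the full protein name, was listed and called higher. CYCB2-2 had 2.72 FPKM in OE and 1.02 FPKM in WT and was called, while CYCB2-1 had 1.37 FPKM in OE and 0.165 FPKM in WT and was not. A share of dividing cells and the RNA made per cell cannot be told apart in whole seedlings. The root list had 3 of 15 genes matched, with a summed level of 5.11 FPKM in OE and 1.18 FPKM in WT. Called among them were SCR1, a ground-tissue patterning factor, at 1.86 FPKM in OE and 0.638 FPKM in WT, and BGIOSGA024510 at 2.54 FPKM in OE and 0.366 FPKM in WT. BGIOSGA024510 carries the symbol of the manganese importer NRAMP5. Floral and seed or pollen storage lists had 0 of 13 and 0 of 6 genes matched, so no values are given for them. The part of root or meristem content in the results was not tested.

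Loci of the cell wall list were mostly higher in OE. The list was matched by words, so not every member need build or loosen walls. It had 161 called rises and 13 called falls among 262 listed loci, with a median log2 difference of 0.87. Although 233 of these loci were higher, the summed level of the list was 11092 FPKM in OE and 11063 FPKM in WT. Glycosyl hydrolases had 42 called rises and 10 called falls among 78 loci. Polygalacturonase activity, which cuts pectin, was assigned to 15 loci, all higher in OE, with 11 called and a median of 1.70. Pectinesterases, which remove methyl groups from pectin, had 6 listed loci, all higher and 4 called. BGIOSGA014585 of this family had 5.81 FPKM in OE and 0.387 FPKM in WT. The largest annotated rise after the polymerase was a beta-hexosaminidase (BGIOSGA019873), an enzyme that trims sugar chains, at 8.64 FPKM in OE and 0.183 FPKM in WT, a log2 difference of 5.56.

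Xyloglucan endotransglucosylase/hydrolases cut and rejoin the xyloglucan that ties cellulose fibrils together. They had 6 called rises and 1 called fall among 9 listed loci. BGIOSGA008858 had 9.89 FPKM in OE and 0.963 FPKM in WT, and BGIOSGA023532 had 45.9 FPKM in OE and 5.27 FPKM in WT. The most abundant member, BGIOSGA028246, had 207 FPKM in OE and 114 FPKM in WT. BGIOSGA014404 went the other way, at 1.44 FPKM in OE and 4.13 FPKM in WT. BGIOSGA017422 had the largest ratio of the family, 7.68 FPKM in OE and 0.190 FPKM in WT, but was not called at q = 0.142 in the authors' deposited table. Cellulose synthases had 6 listed loci, all higher in OE and 3 of them called, with a median log2 difference of 0.47 that centring turns below 0 and a range from 0.37 to 1.49. CESA5 had 29.3 FPKM in OE and 10.4 FPKM in WT.

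Class III peroxidases, secreted haem enzymes that cross-link wall phenolics, had 20 called rises and 0 called falls among 31 listed loci, with a median log2 difference of 1.60. BGIOSGA020118 had 17.5 FPKM in OE and 1.76 FPKM in WT, and BGIOSGA033360 had 4.60 FPKM in OE and 0.360 FPKM in WT. The most abundant called member, BGIOSGA019131, had 69.0 FPKM in OE and 47.2 FPKM in WT, a log2 difference of 0.55 that centring turns below 0. A purple acid phosphatase (BGIOSGA035759), a class of secreted phosphate-releasing enzymes, had 50.3 FPKM in OE and 5.92 FPKM in WT. Sucrose synthase, which splits sucrose into fructose and the UDP-glucose used for cellulose, rose at both listed loci, and BGIOSGA021739, at 140 FPKM in OE and 88.8 FPKM in WT, falls just below 0 after centring. BGIOSGA010570 had 328 FPKM in OE and 95.9 FPKM in WT, and was among the most abundant annotated transcripts that rose.

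Enzymes of long-chain lipids and surface waxes rose strongly at a few loci. The lipid transport and fatty acid list had 29 called rises and 9 called falls among 69 listed loci, with a median log2 difference of 0.76. In either direction 55.1% of the list was called, near the 51.5% of all listed loci. Its summed level was 2222 FPKM in OE and 2386 FPKM in WT. All 7 listed 3-ketoacyl-CoA synthases, which lengthen the fatty acids used for cuticular wax, were higher in OE and 5 were called. BGIOSGA003684 had 7.05 FPKM in OE and 0.501 FPKM in WT, and BGIOSGA023202 had 11.9 FPKM in OE and 1.34 FPKM in WT. Fatty acyl-CoA reductases, which make wax alcohols, split by locus. BGIOSGA031292 had 12.5 FPKM in OE and 1.46 FPKM in WT, whereas the most abundant one, BGIOSGA016181, fell to 27.5 FPKM in OE, against 44.1 FPKM in WT. Lipid-transfer proteins, which carry lipids outside the cell, split too, with an LTP110 locus at 134 FPKM in OE and 17.7 FPKM in WT and BGIOSGA034684 at 177 FPKM in OE and 302 FPKM in WT. The LTP110 loci carry several identifiers and near-identical sequence names, so their separate values are uncertain. ABCG5 (BGIOSGA012359), an ABC transporter needed for suberin barriers in rice roots, had 3.91 FPKM in OE and 0.368 FPKM in WT.

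Auxin-related transcripts were mostly higher in OE. The list had 30 called rises and 2 called falls among 53 loci, with a median log2 difference of 0.86. All 10 loci named auxin-responsive protein were higher and 7 were called. These nuclear proteins repress auxin response factors until auxin triggers their breakdown. IAA31 (BGIOSGA037741) had 12.5 FPKM in OE and 1.30 FPKM in WT, and the most abundant one, BGIOSGA019432, had 127 FPKM in OE and 65.2 FPKM in WT. The auxin response factors themselves had 5 called among 7 listed, all 7 higher, with log2 differences between 0.39 and 2.17, and 1 called member falls below 0 after centring. ARF16 had 1.62 FPKM in OE and 0.360 FPKM in WT.

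Transcription factors had 32 called rises and 10 called falls among 97 listed loci, each a smaller share than the 37.9% and 13.6% over all listed loci, with a median log2 difference of 0.83. Homeodomain-leucine zipper factors differed among themselves. HOX23 had 5.41 FPKM in OE and 0.599 FPKM in WT, HOX2 had 7.92 FPKM in OE and 1.48 FPKM in WT, but HOX15 had 6.52 FPKM in OE and 11.3 FPKM in WT. All 6 listed WRKY factors, regulators of defence genes, were higher and 4 were called. WRKY71 (BGIOSGA007670) had 5.79 FPKM in OE and 1.67 FPKM in WT, and WRKY45-2 (BGIOSGA019621) had 24.9 FPKM in OE and 10.4 FPKM in WT. Protein kinases had 123 called rises and 26 called falls among 252 loci, with 86 of the rises and 11 of the falls reaching 2-fold. NEK2, a kinase of a family tied to mitosis, had 2.68 FPKM in OE and 0.715 FPKM in WT. BZR1, the transcription factor of brassinosteroid response, had 9.12 FPKM in OE and 4.23 FPKM in WT.

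**Figure D4:**
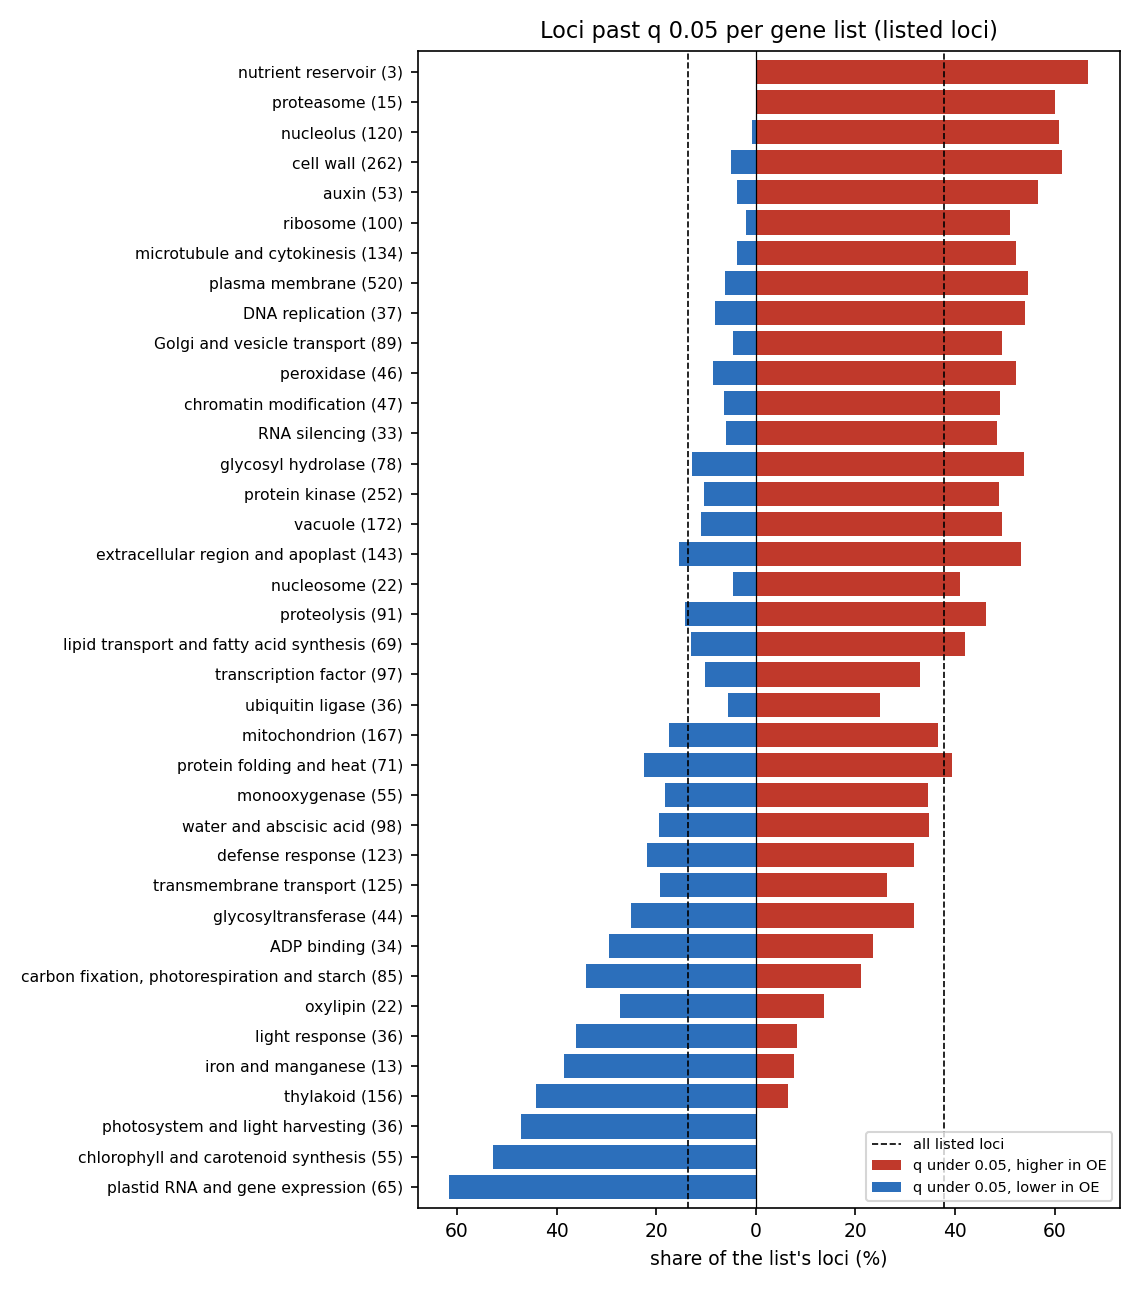
For each of 38 gene lists (listed loci in brackets), bars give the share of listed loci called higher in OE (right, red) and lower in OE (left, blue). Dashed lines mark the shares over all listed loci, 37.9% and 13.6%. More loci were called higher than lower in 29 lists, and in 24 after centring, while plastid RNA and gene expression, chlorophyll and carotenoid synthesis, and photosystem lists hold 0 called rises.

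Photosynthesis genes were lower in OE, by smaller ratios than the rises above but at high levels. The photosystem and light-harvesting list had 17 called falls and 0 called rises among 36 listed loci, with a median log2 difference of -0.61. The thylakoid list had 69 called falls and 10 called rises among 156 loci. Pseudocount made little difference, with medians of -0.59 and -0.55. All 10 listed chlorophyll a-b binding proteins, the antenna of the photosystems, were lower in OE and 4 were called, with log2 differences between -1.13 and -0.45. BGIOSGA004351 of this family fell to 490 FPKM in OE, against 1075 FPKM in WT. BGIOSGA035064 had 615 FPKM in OE and 1084 FPKM in WT but was not called, at q = 0.0515 in the authors' deposited table. These antenna genes are close copies, so the split of fragments among them is uncertain.

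The subunit PSAH of photosystem I had 292 FPKM in OE and 511 FPKM in WT, and oxygen-evolving enhancer protein 3 (BGIOSGA025897) of photosystem II had 394 FPKM in OE and 643 FPKM in WT. Ferredoxin--NADP reductase (BGIOSGA022091), which makes NADPH at the end of the electron chain, had 77.4 FPKM in OE and 135 FPKM in WT. Carbonic anhydrase (BGIOSGA004082) had 278 FPKM in OE and 575 FPKM in WT, and phosphoribulokinase (BGIOSGA008865), an enzyme specific to the Calvin cycle, had 156 FPKM in OE and 244 FPKM in WT. Some loci on unplaced scaffolds carry the names of genes that plastid genomes encode. Whether these scaffolds are plastid sequence or nuclear copies is not given in the sources used here, and rps14 of the plastid ribosome is listed on chromosome 10 as well. Of the scaffold loci, ycf4, needed to assemble photosystem I, had 21.5 FPKM in OE and 58.6 FPKM in WT, and ndhC had 353 FPKM in OE and 729 FPKM in WT.

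The carbon fixation, photorespiration and starch list was mixed, with 29 called falls and 18 called rises among 85 loci. The main Rubisco small subunit locus, RBCS, had 2432 FPKM in OE and 4491 FPKM in WT and was not called, at q = 0.189 in the authors' deposited table. Another small subunit locus, BGIOSGA007558, rose to 16.0 FPKM in OE, against 2.06 FPKM in WT. Glucose-1-phosphate adenylyltransferase, the first enzyme of starch synthesis, fell at BGIOSGA009855, with 10.1 FPKM in OE and 21.6 FPKM in WT, and rose at BGIOSGA017490, with 1.90 FPKM in OE and 0.614 FPKM in WT. Phosphoglycerate kinase divided likewise. BGIOSGA017793 and BGIOSGA017799 had 245 and 93.4 FPKM in OE, against 413 and 159 FPKM in WT. BGIOSGA007623 and BGIOSGA020715 had 57.2 and 4.06 FPKM in OE, against 36.0 and 1.61 FPKM in WT, and the first of these had a log2 difference of 0.67, level with the listed median.

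The chlorophyll and carotenoid list had 29 called falls and 0 called rises among 55 listed loci, with a median log2 difference of -0.56. Glutamyl-tRNA reductase (BGIOSGA031606), the committed step toward chlorophyll and haem, had 60.0 FPKM in OE and 105 FPKM in WT. Zeta-carotene desaturase (BGIOSGA025365), a step of carotenoid synthesis, had 13.7 FPKM in OE and 22.9 FPKM in WT. The magnesium chelatase subunits CHLH, CHLD and CHLI, which commit the pathway to chlorophyll, were listed but not called. CHLH had 137 FPKM in OE and 255 FPKM in WT.

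The plastid RNA and gene expression list had 40 called falls and 0 called rises among 65 listed loci, with a median log2 difference of -0.62, and 4 of the loci not called were higher in OE. The plastid elongation factor G (BGIOSGA014643) of this list had 46.6 FPKM in OE and 68.3 FPKM in WT. Not every member runs plastid gene expression, since the list also holds the ferredoxin--NADP reductase given above and a histone deacetylase (BGIOSGA037104). Outside the list, an RNA polymerase sigma factor (BGIOSGA020470), a class of proteins that direct the plastid's own polymerase, had 36.7 FPKM in OE and 54.0 FPKM in WT. Ribosomal RNA processing, a term whose name does not specify a compartment, had 29 called falls and 1 called rise among 55 loci. Of these 55 loci, 43 carried a plastid compartment term, and all 43 were lower in OE, compared with 9 of the 12 without such a term.

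Nucleolus and cytosolic ribosome groups pointed the other way, in small steps. Not every nucleolus member makes ribosomes, since that list also holds a beta tubulin (BGIOSGA011667), the replication clamp BGIOSGA009238 and elongation factor 1-alpha (BGIOSGA011974). The nucleolus list had 73 called rises and 1 called fall among 120 listed loci, but 12 of those rises reached 2-fold and 32 called loci lay below 0 after centring. Cytosolic ribosomal proteins had 19 called rises and 0 called falls among 29 loci, with a median log2 difference of 0.63 that centring turns slightly negative. The ribosomal protein L13 locus BGIOSGA010380 had 93.4 FPKM in OE and 41.5 FPKM in WT. The proteasome, which degrades tagged proteins, had 9 called rises and 0 called falls among 15 loci, with a median of 0.61 that also turns negative on centring. Golgi and vesicle transport had 44 called rises and 4 called falls among 89 loci, which centring changed to 25 above and 23 below.

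The light response list had 13 called falls and 3 called rises among 36 loci. Its members are not mainly signalling genes, since they include chlorophyll a-b binding proteins, Rubisco small subunits, glutamine synthetase and glucose-1-phosphate adenylyltransferase. The phosphorelay signal transduction term had 12 listed loci, all lower in OE, 7 of them called and 1 with a plastid term. PRR37, a pseudo-response regulator of the circadian clock and of heading date, had 24.1 FPKM in OE and 38.4 FPKM in WT and was called. PRR73 of the same family had 65.0 FPKM in OE and 90.5 FPKM in WT and was not. The time of day of sampling is not given in the sources used here.

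Metal, transport and stress lists held changes in both directions. Iron and manganese homeostasis had 5 called falls and 1 called rise among 13 loci, with a median log2 difference of -0.67. The called rise was an aconitate hydratase (BGIOSGA011492), with a log2 difference of 0.64 that centring turns below 0. The list does not hold BGIOSGA024510, whose log2 difference of 2.80 lies above the list's highest of 1.07. Ferritin (BGIOSGA034644), the iron store of the plastid, had 5.71 FPKM in OE and 10.4 FPKM in WT. A metal transporter locus, BGIOSGA025476, had 27.7 FPKM in OE and 52.3 FPKM in WT, opposite in direction to BGIOSGA024510. Transmembrane transport had 33 called rises and 24 called falls among 125 loci, which centring changed to 22 above and 35 below. The potassium transporter BGIOSGA010387 had 4.54 FPKM in OE and 10.7 FPKM in WT. Defence response had 39 called rises and 27 called falls among 123 loci, and ADP binding, the activity assigned to NB-ARC resistance proteins, 8 and 10 among 34. Phenylalanine ammonia-lyase, the entry to phenylpropanoids, fell at BGIOSGA018017, with 2.01 FPKM in OE and 4.36 FPKM in WT, and rose at BGIOSGA014703, with 1.48 FPKM in OE and 0.435 FPKM in WT.

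Response to water and abscisic acid had 34 called rises and 19 called falls among 98 loci, which centring changed to 26 above and 27 below. CYP707A5, which breaks down abscisic acid, had 2.82 FPKM in OE and 0.872 FPKM in WT. The fermentation enzyme ADH1 had 17.7 FPKM in OE and 5.76 FPKM in WT, and its partner PDC2 had 15.5 FPKM in OE and 7.89 FPKM in WT. Oxylipin genes, which feed jasmonate synthesis, had 6 called falls and 3 called rises among 22 loci. Lipoxygenases, their first enzymes, fell at the more abundant BGIOSGA006958, with 10.5 FPKM in OE and 16.0 FPKM in WT, and rose at BGIOSGA037589, with 3.18 FPKM in OE and 0.869 FPKM in WT.

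**Figure D5:**
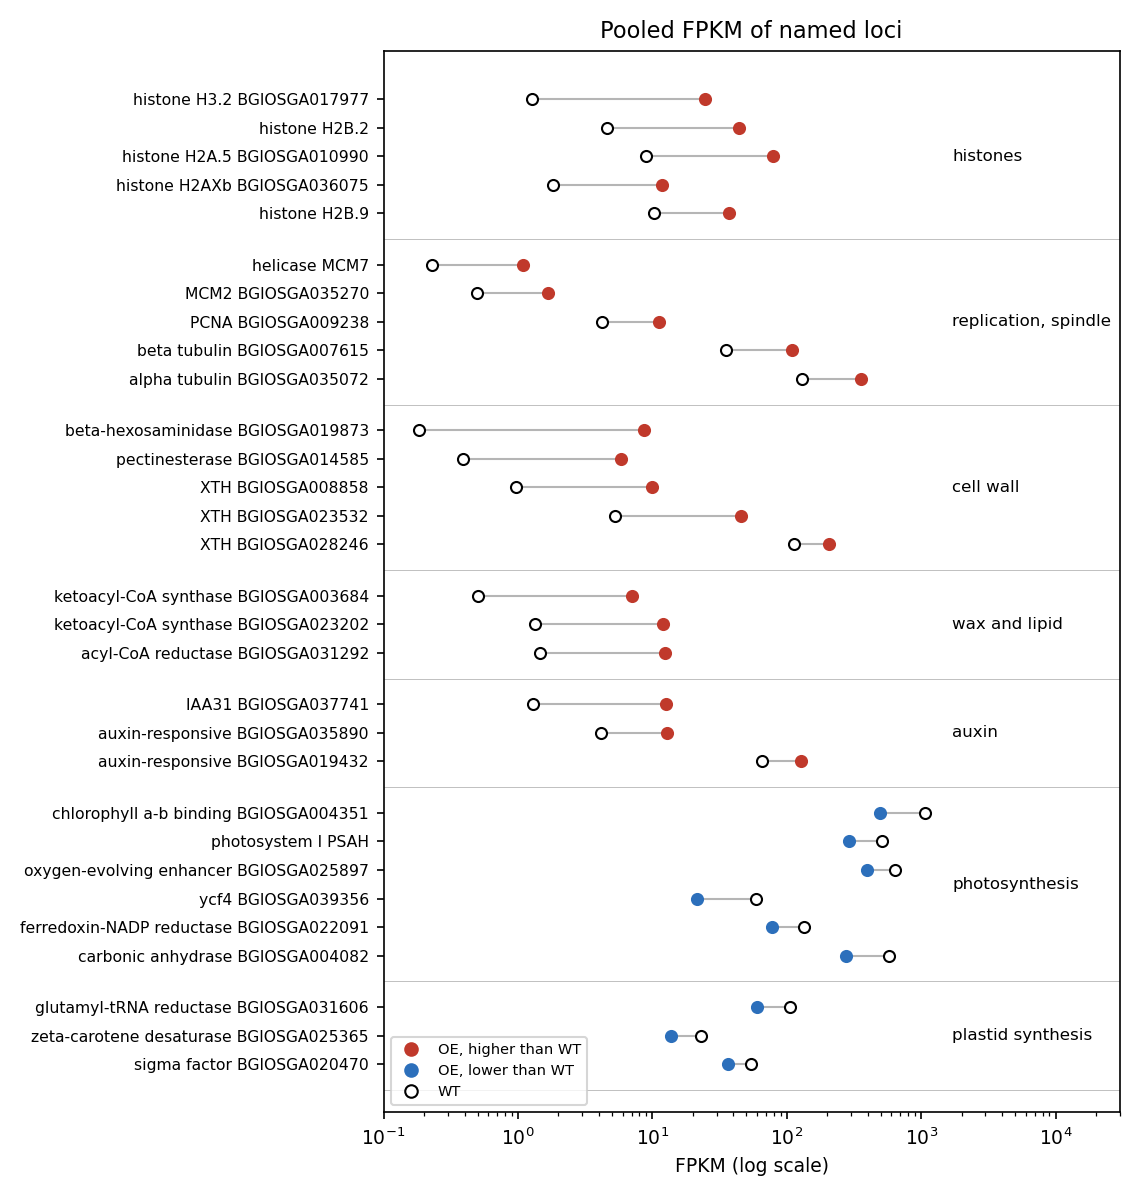
Pooled FPKM (log axis) of selected loci, with filled points for OE and open points for WT joined by a line. Most are named in the text, while BGIOSGA036075, H2B.9 and BGIOSGA035890 appear only here. The selected loci of division, cell wall, lipid and auxin groups lie higher in OE, by up to the step between 8.64 and 0.183 FPKM of the beta-hexosaminidase. Those selected for photosynthesis and plastid synthesis lie lower in OE. The selection leaves out loci of these groups that went the other way, such as BGIOSGA014404, BGIOSGA016181, BGIOSGA034684 and BGIOSGA007558. The loci shown keep their direction after centring.

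The RNA silencing list, chosen for its tie to the over-expressed enzyme, had 16 called rises and 2 called falls among 33 listed loci, with a median log2 difference of 0.63 that centring turns to -0.042. Many of its called members are not known as small RNA enzymes. They include MCM3, a villin that binds actin (BGIOSGA019199), and 4 loci with a microtubule activity term, all 4 of which rose. BGIOSGA026493 of these had 2.04 FPKM in OE and 0.269 FPKM in WT. Loci with a ribonuclease III term, the activity of Dicer-like proteins, numbered 3 and did not share a direction. BGIOSGA010357 had 3.16 FPKM in OE and 1.82 FPKM in WT and was called higher. BGIOSGA014744 had 2.66 FPKM in OE and 4.01 FPKM in WT and was called lower, and BGIOSGA011556 had 1.95 FPKM in OE and 2.65 FPKM in WT and was not called. Loci with a term for binding small interfering RNA, the activity of Argonaute proteins, numbered 2. BGIOSGA005301 had 7.10 FPKM in OE and 4.91 FPKM in WT and was called, with a log2 difference of 0.53 that falls below 0 after centring. BGIOSGA014534 had 8.56 FPKM in OE and 6.56 FPKM in WT and was not called.

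The chromatin modification list was weighted to rises, with 23 called rises and 3 called falls among 47 listed loci and a median log2 difference of 0.91. Not every member is a chromatin regulator, since its called rises include MCM2, MCM3, MCM7 and the villin BGIOSGA019199, all named above. The term histone H3-K9 methylation had 19 called rises and 0 called falls among 27 loci, at a median of 1.69 that a pseudocount of 1 brought to 0.66. A DNA (cytosine-5)-methyltransferase (BGIOSGA025270), the enzyme class that writes DNA methylation, had 1.43 FPKM in OE and 0.819 FPKM in WT. A histone deacetylase (BGIOSGA037104) fell to 2.39 FPKM in OE, against 5.53 FPKM in WT.

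Structured non-coding RNAs were among the highest values in the table. Small nuclear RNAs of the spliceosome had 13 listed loci, all higher in OE and 4 called, with a median log2 difference of 0.65 that centring turns negative. Small nucleolar RNAs other than U3, which guide chemical changes of ribosomal RNA, had 5 called among 7, with a median of 1.20. U3, needed to cut ribosomal RNA precursors, was called higher at all 3 listed loci, and the RNA of the signal recognition particle at both listed loci. Loci matched to small subunit ribosomal RNA went in both directions, with 2 called rises and 3 called falls among 6. FPKM of transcripts this short depends on how effective length is set, and copies are near-identical, so these values are uncertain.

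Of the listed loci, 789 carried an informative protein name. These had 357 called rises and 91 called falls with a median log2 difference of 0.68, and the remaining loci 1269 and 494 with a median of 0.67. The largest called rise after the polymerase was such an unnamed locus, BGIOSGA005366 on chromosome 2, with 39.0 FPKM in OE and 0.221 FPKM in WT. Its test was close to the threshold, at q = 0.0474 in the authors' deposited table. BGIOSGA017100 on chromosome 4 fell to 50.1 FPKM in OE, against 226 FPKM in WT, at q = 0.00105 in the authors' deposited table. Around the threshold itself, the last called locus had q = 0.0498 and the first not called q = 0.0501 in the authors' deposited table.

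The excess of higher loci was found on every placed chromosome. On each of chromosomes 1 to 12, between 64.7% and 71.7% of listed loci were higher in OE, with chromosome medians between 0.60 and 0.77. The 48 loci on unplaced scaffolds differed, with 41.7% higher and a median of -0.50. That group contains the scaffold loci named above for plastid genes.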

How the data were processed

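The FPKM values, 1 pooled value per group and locus, were computed by the authors and deposited with their log2 fold change, p-value and q-value, per the file headers. Cufflinks 2.2.1 and Cuffdiff are named in the submitters' processing notes, while the sources used here do not state the aligner, genome build, strand handling or Cuffdiff version. Antisense and overlapping genes can therefore not be told apart. The deposited log2 value was recomputed as OE over WT without a pseudocount and differed by at most 1.68e-05. No further test was made, since the files hold no counts and no value per library. The number of tests was taken as the smallest for which q/p gave whole ranks at most p levels (91.1%, relative tolerance 3e-06), a step tested on simulated data. Python 3.11.15, numpy 2.4.6, pandas 2.3.3 and matplotlib 3.10.9 were used.

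Gene lists were matched by words in the GO fields and protein names, and GO terms with at least 12 listed loci were kept. Members and lists were chosen with earlier results of these data known, and the lists nucleolus, plasma membrane, extracellular region, vacuole, mitochondrion, proteasome, plastid RNA, chromatin modification and light response after the values were seen, as were all protein families and the plastid compartment split. Named loci were drawn from the polymerase, the 10 largest annotated rises and falls with at least 1 FPKM in the higher group (also with a pseudocount of 1), the 5 highest-level rises and falls, and up to 4 leading members plus the most abundant one of each list. Loci outside this rule were chosen after their values were seen, namely the polymerase neighbours, the unnamed loci, the non-called loci, the silencing members without a protein name, the marker genes, ADH1, PDC2, BZR1, CESA5, HOX15, PRR37, RPS14, BGIOSGA007615, BGIOSGA007623, BGIOSGA014703, BGIOSGA016181, BGIOSGA017799, BGIOSGA019621, BGIOSGA020715, BGIOSGA021739, BGIOSGA025476 and BGIOSGA031292. The reference gene table held 0 of 4143 BGIOSGA identifiers, so no reference name or sequence was used. Alternatives were a stricter q of 0.01, FPKM minima, pseudocounts of 0.1 and 1, centring, and leaving out 30 loci with several identifiers. Per-library columns that could not be assigned numbered 0.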

Additional observations from a re-analysis of the deposited data

Results flagged for a closer look

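The polymerase locus BGIOSGA002194 stood at 69.5 FPKM in the libraries labelled knock-down, against 0.190 FPKM in WT in the companion table, a signal far above the control level in libraries that the comparison of OE with WT does not use. In OE it stood at 58.7 FPKM. The label of the knock-down libraries and the level of this locus thus point in opposite directions, and the cause was not tested. Values are pooled, so single libraries were not compared.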

How the results depend on the processing

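At a q under 0.01 the called rises numbered 912 and the called falls 232, and at least 2-fold falls 64. Centring on the listed median changed at least 2-fold rises to 473 and at least 2-fold falls to 585, which is every called fall by construction, since no listed difference is small enough to stay above -1 after 0.67 is subtracted. A pseudocount of 1 left 46 at least 2-fold falls. The median log2 difference of 0.67 became 0.55 with a pseudocount of 1, 0.66 with 0.1, 0.66 at 1 FPKM or more in the higher group and 0.58 at 1 FPKM or more in both groups. More loci were called higher than lower in 29 of the 38 lists, and in 24 after centring. Centring turned the median negative for RNA silencing (-0.042), glycosyltransferases (-0.053), defence (-0.16), ubiquitin ligases (-0.16), protein folding (-0.054), ribosome (-0.0060), water and abscisic acid (-0.046), proteolysis (-0.0035), monooxygenases (-0.13), Golgi (-0.053), nucleolus (-0.031), vacuole (-0.028), mitochondrion (-0.11) and proteasome (-0.061). By its own construction it also turned named loci negative, among them BGIOSGA007623 (-0.0006), BGIOSGA021739 (-0.013), BGIOSGA019199 (-0.042), BGIOSGA019131 (-0.12) and BGIOSGA005301 (-0.14). BGIOSGA011492 (-0.034), BGIOSGA011974 (-0.11), BGIOSGA012789 (-0.17) and BGIOSGA014534 (-0.29) turned negative as well.

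No paired analysis was possible because the files hold 1 pooled value per group. Leaving out each replicate was not run for the same reason. Whether centring or the deposited scaling is nearer to the RNA content of the seedlings was not tested. Depth is unknown, so counting error behind the low FPKM values cannot be given, and loci above an unadjusted p of 0.05 have no value here.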
